A study of Homo sapiens with 6 samples.

Results

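The enzymes that write and erase DNA methylation were followed across a pair of human lung adenocarcinoma cell lines through every probe set whose platform annotation named DNMT1, DNMT3A, DNMT3B, TET1, TET2, TET3, UHRF1 or TDG and no other gene. The 8 genes, of 19775 named on the array, had 16 such probe sets among 54675. Both lines come from the parental line CL1. CL1-0 is labelled poorly invasive and CL1-5 highly invasive, and the samples were described as 3 biological repeats of each line. All 6 samples were grown in the same serum-supplemented RPMI medium without further treatment, and total RNA was hybridised to one-colour oligonucleotide arrays. The labels do not say whether the repeats were separate cultures, so p-values measure the spread between these samples, and each line stands for 1 lineage of cells. Transcripts were measured, not DNA methylation itself.

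Methylation of cytosine in CpG dinucleotides is copied onto newly made DNA by DNMT1, which is brought to hemimethylated sites by UHRF1. DNMT3A and DNMT3B place methyl groups on unmethylated DNA. The TET enzymes oxidise 5-methylcytosine with 2-oxoglutarate and iron as cofactors, and the glycosylase TDG removes the most oxidised forms so that base excision repair can insert an unmodified cytosine. In lung cancer, methylation of promoter CpG islands is a known means of silencing tumour suppressor genes.

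The 6 arrays separated by line, and repeat 3 of both lines stood apart from repeats 1 and 2 on the second principal component, which held 7.98% of the variance. The log2 ratio of 3′ to 5′ signal of the ACTB control, a sign of RNA quality, was 1.17 in CL1-0 and 0.91 in CL1-5 for repeat 3, and 0.31 to 0.53 on the other 4 arrays. Its part in the results below was not tested, and values without repeat 3 of both lines are given beside the enzymes they move by over 1.5 times or across the threshold. Of 11 epithelial and lung adenocarcinoma markers, 10 lay above the 40th percentile of the array, used here as a stand-in for background, on every CL1-0 array and 9 on every CL1-5 array. KRT19 lay under it on all arrays, EPCAM did so in CL1-5, and the lung lineage factor NKX2-1 was only a little above it, with means of 26.9 and 25.0 signal units. The summed signal of the 11 was 575 to 616 in CL1-0 and 4846 to 5669 in CL1-5, most of it KRT18 in CL1-5. The leukocyte marker PTPRC, the fibroblast marker LUM and the endothelial marker CDH5 were under it on all 6 arrays. With these counted, 2 of 4 leukocyte, 1 of 6 fibroblast and 2 of 5 endothelial markers lay under it on all 6 arrays. On all 3 CL1-0 arrays 2 of 4 leukocyte, 3 of 6 fibroblast and 2 of 5 endothelial markers lay above it, and as many did on all 3 CL1-5 arrays. In the unpaired fit described below, 1 endothelial marker was called higher in CL1-5, by 2-fold or more. The summed signal of 4 leukocyte markers was 82.1 to 96.7 in CL1-0 and 80.1 to 90.3 in CL1-5, that of 6 fibroblast markers 136 to 150 and 123 to 129, and that of 5 endothelial markers 103 to 125 and 182 to 193. In bulk RNA, fewer cells with a transcript and less of it per cell cannot be told apart.

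None of the 7 enzymes that could be tested differed strongly between the lines. Of the 16 probe sets 13 passed the filter on low values (above the 40th percentile on at least 3 of the 6 arrays), covering 7 of the 8 genes, and both TET1 probe sets failed it. With limma's moderated test and Benjamini-Hochberg adjustment over all 33777 probe sets kept, 0 of the 13 were higher and 0 lower in CL1-5 at an adjusted p under 0.05. Of all probe sets tested 44.4% were called, 19.8% higher and 24.6% lower. Through the brightest probe set of each gene, 0 of 7 genes were called against 49.1% of 14828 genes, and 2 of the 7 had an unadjusted p under 0.05. The median absolute log2 fold change of the 7 genes was 0.09, against 0.32 over all genes tested, and 6 of the 7 lay under that value. No 95% interval of the 13 probe sets reached a 2-fold change in either direction, and the same held for 74.6% of all probe sets tested. Each interval is for a single probe set. Because a constant was added before taking log2, changes of dim probe sets are understated. Log2 fold changes are given as CL1-5 over CL1-0 throughout, with n = 3 arrays per line.

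**Figure D1:**
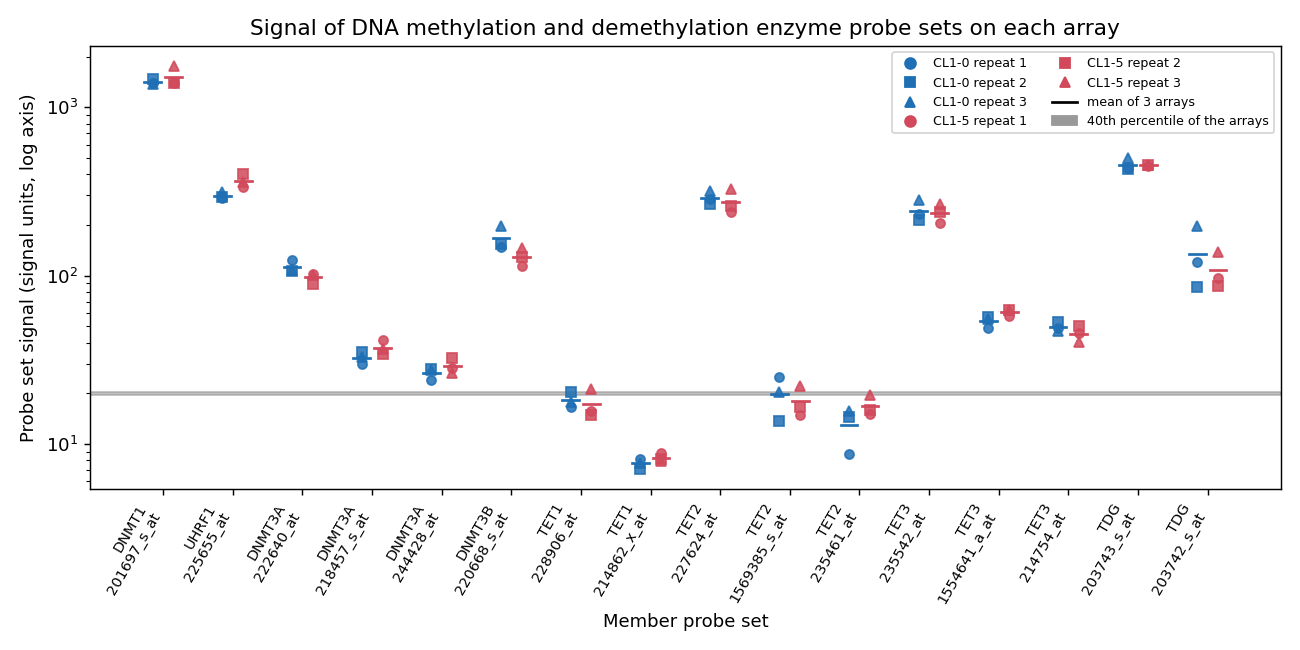
Signal of each of the 16 probe sets (x axis, gene and probe set) on each of the 6 arrays (y axis, signal units on a log axis), with lines for the mean of 3 arrays and a grey band for the 40th percentile of the arrays. CL1-0 and CL1-5 points overlap for 12 of the 16 probe sets, and the TET1 probe sets lie around the band or under it.

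The same-numbered samples of the lines deviated together, so the comparison was also fitted with repeat number as a blocking term (the blocked fit below). In that fit 1 of the 13 probe sets was higher (UHRF1) and 1 lower (DNMT3B) in CL1-5, together 2 of 7 genes, against 62.1% of all genes (27.8% higher, 34.3% lower) and 58.4% of all probe sets (25.8% higher, 32.6% lower). The same 1 higher and 1 lower were called in repeats 1 and 2 alone, where 51.0% of all probe sets (21.9% higher, 29.1% lower) and 54.7% of all genes (23.8% higher, 30.9% lower) were called. The lines did not overlap for 3 of the 7 genes, UHRF1, DNMT3A and DNMT3B, against 59.0% of all genes, and for 4 of the 13 probe sets, against 53.5% of all probe sets.

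**Figure D2:**
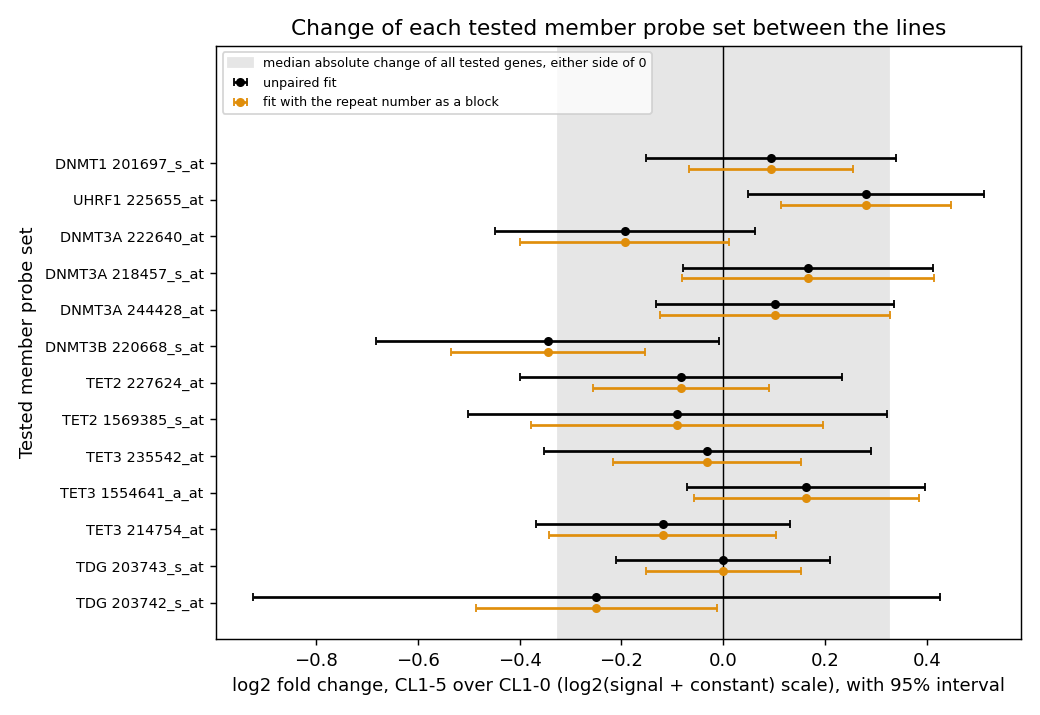
Log2 fold change of CL1-5 over CL1-0 (x axis) with its 95% interval for the 13 tested probe sets (y axis), from the unpaired fit (black) and the blocked fit (orange). The grey band is the median absolute change of all tested genes, 0.32, on either side of 0, and of all estimates DNMT3B alone lies outside it, at -0.34.

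The maintenance pair was bright in both lines. DNMT1, the enzyme that copies methylation after replication (probe set 201697_s_at), measured 1384, 1475 and 1369 signal units in CL1-0 repeats 1, 2 and 3 and 1385, 1399 and 1756 in CL1-5. The lines overlapped, and the highest value was the single array CL1-5 repeat 3. The log2 fold change was 0.09 (SE 0.11, 95% interval -0.15 to 0.34, adjusted p = 0.53), which leaves room for a level in CL1-5 between 0.901 and 1.26 times that in CL1-0. Without repeat 3 of either line it was -0.04.

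UHRF1, the ubiquitin ligase that guides DNMT1 to hemimethylated DNA (probe set 225655_at), measured 288, 293 and 316 signal units in CL1-0 and 337, 402 and 358 in CL1-5. All CL1-5 arrays lay above all CL1-0 arrays. The log2 fold change was 0.28 (SE 0.10, 95% interval 0.05 to 0.51), a 1.21-fold higher mean level, and narrowly missed the threshold when adjusted over all probe sets (adjusted p = 0.0525). It was positive in 3 of 3 same-numbered pairs, by 0.22, 0.45 and 0.18, and passed in the blocked fit (adjusted p = 0.00676). It also passed in the fit over 1 probe set per gene (adjusted p = 0.0378), in repeats 1 and 2 alone (log2 fold change 0.33, adjusted p = 0.0209), without CL1-0 repeat 3 (adjusted p = 0.0478) and with array weights (0.41, adjusted p = 8.8e-04). Over all alternatives the adjusted p ranged from 8.8e-04 to 0.20. The change of DNMT1 minus that of UHRF1 was -0.19 on the log2 scale, negative in 2 of 3 pairs, and did not exceed the spread between arrays (exact two-sided permutation p = 0.3, adjusted p = 0.6 over 3 pairs of genes, 0.1 being the lowest value this design allows).

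DNMT1 and UHRF1 are known as genes of S phase, when E2F factors are active, so their start regions are shown with the letters of the E2F motif. RefSeq promoter windows of GRCh38.p14, 250 bases before to 50 after a start, were searched on both strands for TTTCCCGC, TTTCGCGC, TTTGCCGC and TTTGGCGC, which do not contain one another. Such letters stood in the 1 window of DNMT1 and in 2 of the 3 windows of UHRF1, in 0 of the 15 windows of the other 6 genes, and in 3.31% of all 35116 windows. The 30 bases around each match are printed 5′ to 3′ on the strand of the gene, with the matching letters or their reverse complement in capitals.
DNMT1, chr19:10194937-10194966, minus strand: catcggtttccGCGCGAAAagccggggcgc
UHRF1, chr19:4909476-4909505, plus strand: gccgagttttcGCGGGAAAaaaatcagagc
UHRF1, chr19:4909973-4910002, plus strand: cccgagcccgaTTTCGCGCgccctgagttc
In DNMT1 the match begins 2 bases before the start, and in UHRF1 14 and 160 bases before 2 different starts. A match describes the letters only, and binding was not measured.

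The de novo enzymes were both lower on average in CL1-5 through their brightest probe sets, and neither passed the unpaired test. DNMT3B (probe set 220668_s_at) measured 148, 155 and 198 signal units in CL1-0 and 114, 129 and 146 in CL1-5, so that every CL1-5 array lay under every CL1-0 array, by a narrow margin between CL1-5 repeat 3 and CL1-0 repeat 1. The log2 fold change was -0.34 (SE 0.15, 95% interval -0.68 to -0.01, adjusted p = 0.0925), the largest in size among the 7 genes. It was negative in 3 of 3 pairs, at -0.37, -0.25 and -0.42, and passed in the blocked fit (adjusted p = 0.00418), in repeats 1 and 2 alone (-0.31, adjusted p = 0.0471) and with array weights (-0.27, adjusted p = 0.0164). Over all alternatives the adjusted p ranged from 0.00418 to 0.26.

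DNMT3A had 3 probe sets, which differed in the sign of their change. The brightest, 222640_at, measured 123, 106 and 109 signal units in CL1-0 and 103, 88.8 and 102 in CL1-5. Its lines did not overlap, and the log2 fold change was -0.19 (SE 0.11, 95% interval -0.45 to 0.06, adjusted p = 0.20, and 0.0995 in the blocked fit). It passed with array weights (-0.24, adjusted p = 0.0233). The dimmer 218457_s_at averaged 32.6 ± 2.78 (SD) in CL1-0 and 37.4 ± 3.82 in CL1-5, and 244428_at averaged 26.5 ± 2.04 and 29.0 ± 3.08. Their log2 fold changes were 0.17 (adjusted p = 0.25) and 0.10 (adjusted p = 0.47), with lines that overlapped, and without repeat 3 that of 244428_at was 0.18 (adjusted p = 0.28). A difference for DNMT3A therefore depends on the probe set, and which transcripts each probe set reads is not given in the sources used here. The change of DNMT3A minus that of DNMT3B was 0.15 (exact permutation p = 0.4, adjusted p = 0.6 over 3 pairs of genes). It was positive in 3 of 3 same-numbered pairs, one of them at 0.0045, with an exact sign-flip p of 0.25, the lowest that 3 pairs allow.

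**Figure D3:**
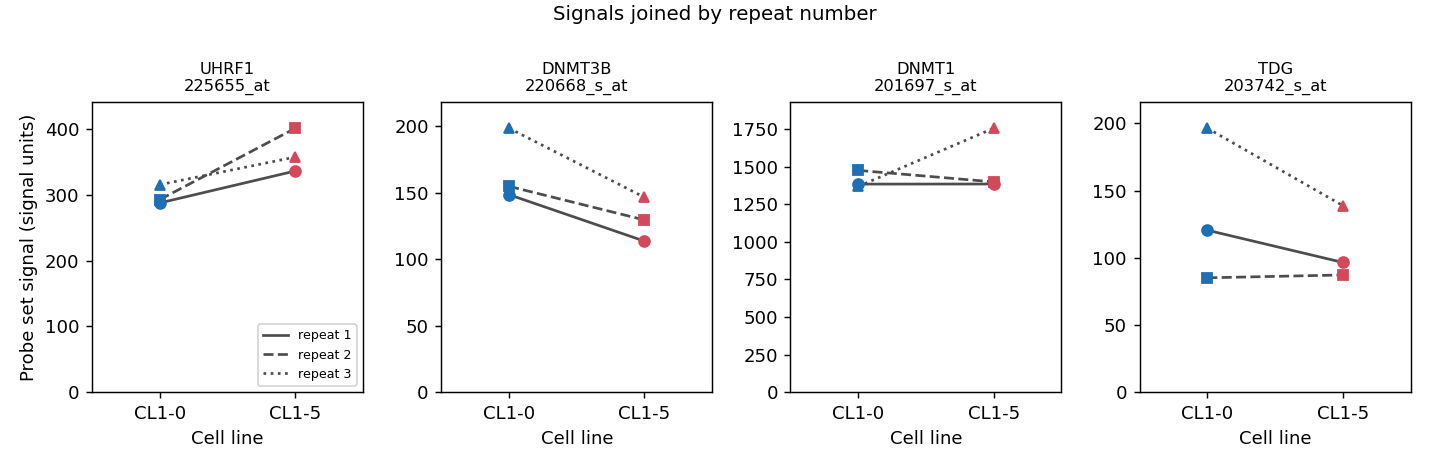
Signal (y axis, signal units, from 0) in CL1-0 and CL1-5 (x axis) with lines joining arrays of the same repeat number, for UHRF1, DNMT3B, DNMT1 and the TDG probe set 203742_s_at. All 3 lines go up for UHRF1 and down for DNMT3B, the DNMT1 difference lies in repeat 3 alone, and repeat 3 is highest in both lines for TDG.

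The windows printed here for UHRF1 and DNMT3B, whose levels came nearest to a call in opposite directions, differed in CpG content. They are printed 5′ to 3′ with each CpG in capitals, over the 250 bases before a start (RefSeq, GRCh38.p14). For UHRF1 the window is that of the start with the E2F letters 14 bases before it.
UHRF1, chr19:4909251-4909500, plus strand: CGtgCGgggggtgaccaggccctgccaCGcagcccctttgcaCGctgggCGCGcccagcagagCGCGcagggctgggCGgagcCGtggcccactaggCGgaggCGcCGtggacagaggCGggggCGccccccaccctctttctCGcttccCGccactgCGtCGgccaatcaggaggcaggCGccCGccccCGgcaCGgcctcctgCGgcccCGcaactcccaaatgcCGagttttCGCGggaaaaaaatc
DNMT3B, chr20:32779602-32779851, plus strand: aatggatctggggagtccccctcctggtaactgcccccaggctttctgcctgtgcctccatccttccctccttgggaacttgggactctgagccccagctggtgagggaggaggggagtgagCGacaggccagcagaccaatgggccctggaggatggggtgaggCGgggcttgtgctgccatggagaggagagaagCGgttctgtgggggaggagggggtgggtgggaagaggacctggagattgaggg
The UHRF1 stretch holds 28 CpG and the DNMT3B stretch 3. Over the full windows of 300 bases, the 3 UHRF1 windows held 36 to 46 CpG, DNMT1 30, the 6 DNMT3A windows 18 to 46, DNMT3B 3, the 3 TET1 windows 6 to 11, the 2 TET2 windows 13 and 35, the 2 TET3 windows 33 and 45, and TDG 22. The median over all windows was 14. The table of windows may not hold every start of a gene. DNMT3B had 1 window in it, so its count of 3 CpG describes that start alone and not any other start of the gene.

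No probe set of the TET dioxygenases passed the test. TET1 was at background level in both, with its brighter probe set 228906_at at 16.7, 20.3 and 17.7 signal units in CL1-0 and 15.8, 14.8 and 21.1 in CL1-5, above the 40th percentile on 1 array of each line. Its other probe set, 214862_x_at, of the kind that may cross-hybridise, lay between 7.11 and 8.85 on all arrays. A difference in TET1 was therefore not detectable here. With no filter its log2 fold changes were -0.06 and 0.06, with adjusted p of 0.76 and 0.45.

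TET2 (probe set 227624_at) measured 284, 266 and 320 signal units in CL1-0 and 239, 260 and 326 in CL1-5. All CL1-0 arrays lay within the range of CL1-5, repeat 3 was the highest array of each line, and the log2 fold change was -0.08 (SE 0.14, 95% interval -0.40 to 0.23, adjusted p = 0.67). Without repeat 3 it was -0.14 (adjusted p = 0.29). The other TET2 probe sets were near background. The probe set 1569385_s_at ranged from 13.7 to 25.0 and was above the 40th percentile on 2 CL1-0 arrays and 1 CL1-5 array, with a log2 fold change of -0.09 (adjusted p = 0.73, and -0.18 with adjusted p = 0.45 without repeat 3), and 235461_at ranged from 8.76 to 19.6 and was above it on none.

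TET3 (probe set 235542_at) measured 232, 214 and 280 signal units in CL1-0 and 205, 239 and 265 in CL1-5, with overlapping lines and a log2 fold change of -0.03 (SE 0.14, 95% interval -0.35 to 0.29, adjusted p = 0.88), or -0.0078 (adjusted p = 0.96) without repeat 3. Its dimmer probe sets pointed opposite ways. Signals of 1554641_a_at were 53.7 ± 4.25 (SD) in CL1-0 and 60.9 ± 2.74 in CL1-5, with lines that did not overlap and a log2 fold change of 0.16 (adjusted p = 0.24). Those of 214754_at were 49.7 ± 3.26 and 45.3 ± 4.69, with a change of -0.12 (adjusted p = 0.42). The change of TET2 minus that of TET3 was -0.05 (exact permutation p = 0.6, adjusted p = 0.6 over 3 pairs of genes).

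TDG, the glycosylase that excises the most oxidised forms of 5-methylcytosine, had nearly equal means in the lines through its brighter probe set. Signals of 203743_s_at were 435, 429 and 498 units in CL1-0 and 450, 456 and 453 in CL1-5. The means were 454 ± 38.3 (SD) and 453 ± 2.63, with a 95% interval of -0.21 to 0.21 around a log2 fold change of 0.00, or 0.07 (adjusted p = 0.57) without repeat 3. The dimmer 203742_s_at measured 121, 85.1 and 196 in CL1-0 and 96.6, 87.3 and 139 in CL1-5. Repeat 3 was the highest array in both lines and repeat 2 the lowest, and the spread within a line exceeded the difference between lines (log2 fold change -0.25, SE 0.29, 95% interval -0.92 to 0.43, adjusted p = 0.54, and 0.0669 in the blocked fit). Without CL1-0 repeat 3 its log2 fold change was 0.05, and without repeat 3 of both lines -0.13 (adjusted p = 0.52).

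DNMT3B had the largest change of the 7 genes, and the 3 genes whose log2 signals were most alike to it over the 6 arrays were listed. The acyltransferase gene MBOAT1, the antisense RNA PSMD6-AS2 and the adaptor gene SH2B2 had Pearson correlations of 0.997, 0.997 and 0.996 with DNMT3B over the 6 arrays. With so few arrays in a pair of lines, 673 genes passed a correlation of 0.9, so the likeness is a description only.

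Related genes were taken from 9 lists, described by counts in the unpaired test beside 22.2% higher and 26.9% lower over all genes. Counts given for the blocked fit stand beside its own shares, 27.8% higher and 34.3% lower over all genes. Over all genes, 2412 of 14828 were called with a change of 2-fold or more. In the lists such genes were 1 of 18 (methyltransferase partners), 1 of 15 (methyl donor cycle), 3 of 33 (replication), 2 of 22 (demethylation and repair) and 2 of 19 (CpG readers). They were 3 of 16 (2-oxoglutarate), 5 of 16 (imprinted), 4 of 12 (germline) and 14 of 26 (promoters often methylated). Of 18 tested partners and regulators of DNA methyltransferases, 2 rose and 4 fell (median log2 fold change 0.03, against -0.03 over all genes), and 8 rose and 6 fell in the blocked fit. UHRF2, the paralog of UHRF1, rose from 522 ± 29.7 (SD) to 806 ± 123 signal units (0.61, SE 0.12, adjusted p = 0.004), and the sliding clamp PCNA, a docking site of DNMT1, rose by 0.31 (SE 0.10). CDCA7L fell by 1.15 (SE 0.10), and ZBTB24, a transcription factor mutated in a form of ICF syndrome, fell by 0.58 (SE 0.10). The chromatin remodeller HELLS, which opens DNA to methyltransferases, fell by 0.70 (SE 0.19), though another of its probe sets was called in the opposite direction.

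Of 22 tested genes of active demethylation and base excision repair, 3 rose and 7 fell, with a median of -0.26, and 3 rose and 12 fell in the blocked fit. The uracil glycosylase UNG rose by 0.72 (SE 0.11) and the ligase LIG1 by 0.43 (SE 0.12). The repair polymerase POLB, which fills the gap left after TDG, went from 1052 ± 118 (SD) to 377 ± 32.6 signal units (-1.46, SE 0.11, adjusted p = 2.7e-05), and its partner ligase LIG3 fell by 0.84 (SE 0.10). SALL4, a stem cell factor that binds 5-hydroxymethylcytosine, fell by 3.09 (SE 0.12). The glycosylase MBD4 did not pass (-0.40, adjusted p = 0.18), but had an adjusted p of 5.2e-04 in the blocked fit and 0.0021 without repeat 3 (-0.48). Those 2 fits called 62.1% and 54.7% of all genes, and MBD4 was named after its values were seen.

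Genes for the supply of the TET cofactor 2-oxoglutarate and for its competitors, counted as 1 list, were mostly lower where the unpaired test called them. Of 16 tested genes 1 rose and 7 fell, with a median of -0.12, and 4 rose and 8 fell in the blocked fit. The isocitrate dehydrogenases IDH1 and IDH2, which make 2-oxoglutarate, fell by 1.72 (SE 0.07) and 1.22 (SE 0.09), IDH1 from 5501 ± 305 (SD) to 1659 ± 14.3 signal units. The aspartate aminotransferase GOT1 fell by 1.42 (SE 0.10), and OGDH, which consumes 2-oxoglutarate, rose by 0.68 (SE 0.09). In the methyl donor cycle, which supplies S-adenosylmethionine, 4 of 15 tested genes rose and 6 fell, with a median of 0.09. For 2 of the 15 all arrays of 1 line lay under the 40th percentile, so that these had to differ. Of the other 13 genes 8 were called, against 47.3% of all genes above that level on at least 1 array of each line. The synthetase gene MAT2A rose by 0.38 (SE 0.06) and MTHFD1 by 0.63 (SE 0.08). The mitochondrial serine enzyme SHMT2 fell by 0.98 (SE 0.08), and MTAP, which salvages methylthioadenosine, was at least 3.53-fold lower, with all CL1-5 arrays under the 40th percentile.

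Of 19 tested readers of methylated or unmethylated CpG, 3 rose and 4 fell, with a median of 0.04. ZBTB38, a zinc finger protein that binds methylated CpG, rose from 558 ± 53.3 (SD) to 1487 ± 132 signal units (1.40, SE 0.10), and the related ZBTB33 fell by 0.45 (SE 0.10). The deacetylase HDAC2, a subunit of the NuRD complex that acts with MBD proteins, fell by 1.13 (SE 0.10), whereas HDAC1 rose by 0.27 (SE 0.07). Of 33 replication and S phase genes, given beside the UHRF1 values because UHRF1 is expressed in that phase, 9 rose and 11 fell, with a median of -0.08. The helicase subunit genes MCM4 and MCM3 rose by 0.86 (SE 0.15) and 0.80 (SE 0.10), the repressor E2F7 rose by 1.39 (SE 0.12), and the licensing factor CDC6, the helicase cofactor CDC45 and the ribonucleotide reductase subunit RRM1 fell by 1.38 (SE 0.11), 1.00 (SE 0.13) and 0.94 (SE 0.09). A part of cell cycle phase in the UHRF1 values was not tested.

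**Figure D4:**
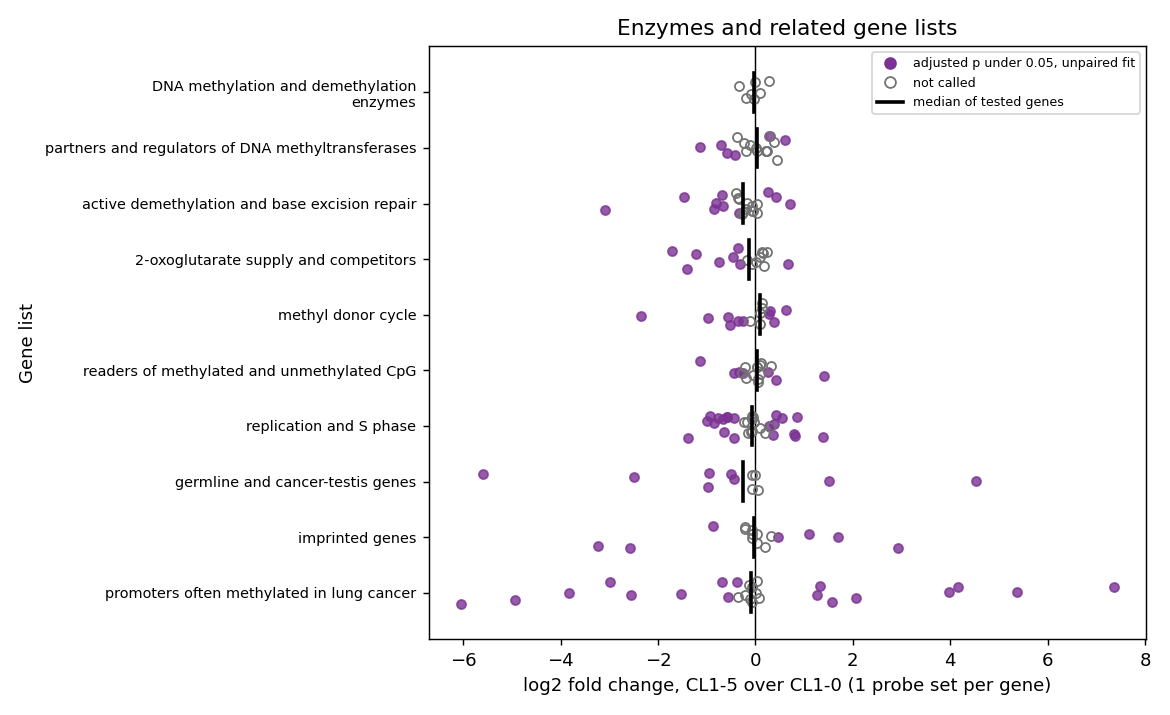
Log2 fold change of CL1-5 over CL1-0 (x axis) for each tested gene of the enzymes and of 9 related lists (y axis), through 1 probe set per gene, with filled points for an adjusted p under 0.05 in the unpaired fit, open points for the rest and a bar at the median. The 7 enzymes span -0.34 to 0.28 and hold no filled point, while 20 genes of the list of promoters often methylated in lung cancer span -2.99 to 5.36. The other 6 of that list lay under the 40th percentile on all arrays of 1 line, and their plotted values are no exact folds.

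Genes whose silencing is known to involve DNA methylation were counted in the same arrays. Of 40 listed germline and cancer-testis genes 34 had a probe set, and 20 of these lay under the 40th percentile on all 6 arrays. Of the 12 that passed the filter, 2 rose and 6 fell, and 4 of the 12 passed through 1 line alone, so that these had to differ. MAGEA11 was at least 13.6-fold higher in CL1-5, HORMAD1, a meiotic chromosome protein gene, at least 25.0-fold lower and the piwi pathway gene TDRD9 at least 3.26-fold lower. MAGEA4 was bright in both lines and fell by 0.97 (SE 0.13). MAGE genes have near-identical copies, so their values are uncertain between family members. Of 16 tested imprinted genes 4 rose and 3 fell, and their median absolute log2 fold change of 0.27 lay under that of all genes. Yet 5 of the 16 were called with a change of 2-fold or more, against 2412 of 14828 over all genes. PHLDA2 (2.92, SE 0.11) and MEST (1.69, SE 0.12) rose most and PEG3 (-3.24, SE 0.15) fell most.

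Of 26 tested genes whose promoters are often methylated in lung cancer, 8 rose and 9 fell. For 6 of the 26 all arrays of 1 line lay under the 40th percentile, so that these had to differ. Among the other 20 the median absolute log2 fold change was 0.47, against 0.31 over all genes above that level on at least 1 array of each line. With the 6 it was 1.29. The list was chosen with earlier results of these data known, so the comparison with all genes is a description only. The largest rises were those of THBD, at least 101-fold, and of the Wnt antagonists SFRP1 (5.36, SE 0.17) and DKK3 (4.15, SE 0.08). The largest falls were those of the protease inhibitor TFPI2, at least 44.3-fold, the guidance factor SLIT2, at least 24.8-fold, and the cell cycle inhibitor CDKN2A, at least 9.10-fold. Whether the methylation of any of these promoters differs was not measured.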

How the data were processed

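The authors deposited 1 intensity per probe set and array on a linear scale. The submitters' processing notes name MAS5; neither a version nor a further step is stated. Detection calls were not used. In GEO's platform table, 41091 of 54675 probe sets had 1 symbol, 1801 several and 11721 none, and 62 were controls; 41037 of the first matched RefSeq genes of GRCh38.p14. A constant of 6.85, the 10th percentile over all arrays, was added before log2. After filtering, 33777 probe sets were fitted together in R 4.3.3 with limma 3.58.1 (lmFit, eBayes with trend). Each gene is represented by its brightest passing probe set, without suffix x where another passed. For an "at least" fold, the dim line is set to its arrays' 40th percentiles, or to the measured value where higher. The number of arrays limits the precision.

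Groups and repeat numbers come from the titles. Over probe sets, the departures of same-numbered arrays from their line's mean had correlations of 0.520, 0.430 and 0.723, and the blocked fit is therefore given beside the main one. This pairing comes from the data, as the labels name no shared day. The main fit has no block. Alternatives changed the constant, filter, scaling, prior, weights, block, arrays used, threshold, probe set and family of tests. The unpaired fit was tested on simulated data with independent noise on each array. These held no deviation shared by same-numbered arrays, so they do not cover that feature of the real arrays. Members and lists were chosen with earlier results of these data known. The text names all probe sets of the 8 genes, from each list some of the 3 called genes with the largest rise and the 3 with the largest fall, and the 3 genes most like DNMT3B. MBD4 and the marker genes were named outside that rule, MBD4 after its values were seen.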

Additional observations from a re-analysis of the deposited data

How the results depend on the processing

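Only 3 arrays per line limit these results, and dim probe sets, TET1 above all, limit them further. UHRF1 and DNMT3B lay on either side of the threshold according to the setting. With the replicate block, 1 member probe set was higher and 1 lower, with log2 fold changes of 0.28 for UHRF1 and -0.34 for DNMT3B, both past the threshold. It changed the call of no other of the 7 genes. With array weights 1 was higher and 2 lower (UHRF1 0.41, DNMT3A -0.24, DNMT3B -0.27), while DNMT1 (-0.039), TET3 (0.10) and TET2 1569385_s_at (0.074) changed sign without a call. Array weights called more throughout: 9195 probe sets higher and 11790 lower of all 33777, and 4320 genes higher and 5430 lower of all 14828. In repeats 1 and 2 alone 1 was higher (UHRF1, 0.33) and 1 lower (DNMT3B, -0.31), and DNMT1 was -0.038. Over 1 probe set per gene UHRF1 passed at 0.28. The difference of TDG, near 0, changed sign with an added constant of 32 (-1.5e-04) and with scaling to the 75th percentile (-0.015). Signs also differed between probe sets of a gene. DNMT3A, at -0.19 through its brightest, was 0.17 through 218457_s_at and 0.10 through 244428_at. TET3 was 0.16 through 1554641_a_at, and TDG was -0.25 through 203742_s_at.

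Leaving out each array in turn gave log2 fold changes of -0.017 to 0.15 for DNMT1, 0.21 to 0.34 for UHRF1, -0.23 to -0.13 for DNMT3A, -0.43 to -0.22 for DNMT3B, -0.21 to 0.0098 for TET2, -0.11 to 0.076 for TET3 and -0.039 to 0.068 for TDG, -0.27 to 0.053 for TET2 1569385_s_at and -0.52 to 0.054 for TDG 203742_s_at. UHRF1 was past the threshold without CL1-0 repeat 3 and in no other of these 6 fits, and no other of the 7 genes was in any.

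Counts of the related lists moved by over 1.5 times as follows, higher or lower in CL1-5. Partners of methyltransferases: 8 higher with the replicate block, 4 with array weights, 4 in repeats 1 and 2, 1 higher and 2 lower at an adjusted p under 0.01. Demethylation and repair: 12 lower with the block, 13 with array weights, 1 higher at 0.01. 2-oxoglutarate: 4 higher with the block, 4 with array weights, 2 in repeats 1 and 2. Methyl donor cycle: 2 higher with no filter, with scaling to the 75th percentile and at 0.01. CpG readers: 1 higher and 2 lower at 0.01. Imprinted genes: 5 lower with array weights and in repeats 1 and 2. With the filter on all 6 arrays, which drops genes expressed in 1 line, 0 germline genes and 5 promoter genes were higher. Without 1 array, the counts ranged from 1 to 3 higher and 2 to 5 lower for partners, 1 to 3 higher for demethylation and repair, 2 to 3 higher for the methyl donor cycle, and 1 to 3 higher and 2 to 4 lower for CpG readers. The cause of these changes was not tested. Leaving out genes under the 40th percentile on all arrays of 1 line, an alternative chosen after seeing the data, moved the median absolute log2 fold change of the promoter list from 1.29 to 0.47 and that of the germline list from 0.73 to 0.26.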
